A study of Homo sapiens with 9 samples.

Results

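Collagen chains, laminin chains and integrins were examined in PANC-1, a line of human pancreatic carcinoma cells with epithelial features, after transfection with a synthetic copy of miR-520f. The genes were those whose single array symbol was that of a numbered collagen chain, a laminin alpha, beta or gamma chain, or an integrin alpha or beta chain, with 1 probe set each. This gave 68 of the 14232 genes tested, 38 collagen chains, 9 laminin chains and 21 genes with integrin symbols. One of the 21, ITGBL1, encodes a secreted protein that only resembles an integrin beta chain, and it is described apart. Of 82 genes in the gene table whose symbols fit, 14 had no probe set of their own here, among them LAMA3, LAMB3, COL7A1, COL17A1, COL18A1, ITGA1 and ITGA4. The 9 arrays held 3 groups of 3 biological replicates, all taken 72 h after treatment. NT cells received the lipid transfection reagent alone, NC cells received 20 nM of a negative control mimic with that lipid, and miR-520f cells received 20 nM of the miR-520f mimic with it. All of them are cultures of 1 cell line without stroma, and the labels do not say how the replicate cultures were separated, so the tests reflect only how far these arrays differ, which may be technical.

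Collagens are trimers of chains wound into a helix. Fibril-forming types give tissues their tensile strength, and type IV forms the network of basement membranes. Laminins are trimers of 1 alpha, 1 beta and 1 gamma chain that lie beside that network. Integrins are pairs of an alpha and a beta chain that hold cells to these proteins and signal inward. The alpha chain largely sets the ligand (collagen for ITGA2, laminin for ITGA3 and ITGA6, fibronectin for ITGA5), and ITGB1 pairs with most of them. In pancreatic cancer most fibrillar collagen is laid down by fibroblasts, while the tumour cells read the matrix through integrins.

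A miRNA mimic is an RNA duplex made to enter the silencing complex, where it acts through its seed, bases 2 to 8. The RefSeq mature strands of miR-520f (GRCh38.p14, chr19:53682213-53682234 for the 3p strand and chr19:53682173-53682194 for the 5p strand, plus strand) are shown with 3 relatives, 5′ to 3′ with the seed in capitals. The labels call the mimic miR-520f without an arm, and the sequence of the product is not given in the sources used here.
miR-520f-3p: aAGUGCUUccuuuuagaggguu
miR-520f-5p: cCUCUAAAgggaagcgcuuucu
miR-520b-3p: aAAGUGCUuccuuuuagaggg
miR-302a-3p: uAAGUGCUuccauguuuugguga
miR-373-3p: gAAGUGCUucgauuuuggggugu
Of 2370 mature names in the table, only miR-520f-3p had its 7 seed letters at bases 2 to 8. The same letters lay at bases 3 to 9 in 11 other names, all of the miR-302, miR-373 and miR-520 kind, 3 of which are shown. The seed of those relatives is thus displaced by 1 base.

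The values are log2 probe set values that the authors had normalized with RMA, a procedure that corrects background, gives the arrays a common distribution and combines the probes of a set. Array medians lay between 4.22 and 4.34. The array most unlike its group was NC replicate 1, whose deviations had a root mean square of 0.169 over all genes against 0.0698 to 0.131 on the other arrays, and the results that rest on it are given with and without it. All 6 markers of the line (KRT8, KRT18, KRT19, EPCAM, CDH1 and VIM) stood above 5 on every array, but several differed between groups. In NT, NC and miR-520f cells EPCAM averaged 7.80, 7.69 and 9.37, CDH1 5.54, 5.46 and 6.61, and KRT18 8.74, 8.87 and 9.15. KRT19 averaged 8.90, 8.83 and 8.16, VIM 12.11, 12.12 and 11.88, and KRT8 11.62, 11.34 and 11.39. The summed values of the 6 ran from 54.4 to 55.0, 54.0 to 54.5 and 56.4 to 56.8. The 4 endothelial markers measured stood between 2.86 and 3.47. Of 5 fibroblast markers, DCN, LUM, PDGFRB and FAP stood between 2.63 and 3.56, while THY1 averaged 7.66, 6.11 and 7.0 in NT, NC and miR-520f cells, and the summed values of the 5 ran from 19.5 to 20.1, 18.1 to 18.5 and 18.5 to 19.2. Among 3 leukocyte markers PTPRC and CD3E stayed between 2.88 and 4.04, while CD68, a lysosomal glycoprotein, averaged 8.65, 8.24 and 7.35, and the sums ran from 15.2 to 15.6, 14.7 to 15.2 and 13.6 to 14.3. The part of these marker differences in the results, for the markers of the line as for THY1 and CD68, was not tested.

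A gene was called at a limma adjusted p (Benjamini-Hochberg over all 14232 genes) under 0.05, and called dim where its mean over the 9 arrays was under 5. Without background values a dim gene cannot be told from one that is not expressed. By this rule 51 of the 68 genes (75.0%) were dim, against 55.8% of all genes. No member lay between 4.75 (LAMC3, just inside) and 5.18 (COL6A1, just outside). The dim genes were 34 of 38 collagen chains, 5 of 9 laminin chains and 12 of 21 integrin genes, and all 6 type IV collagen chains were among them (means of 2.97 to 3.98). The 17 others were COL1A1, COL9A3, COL6A1 and COL6A2, the laminin chains LAMC1, LAMB2, LAMB1 and LAMA5, and the integrin genes ITGB1, ITGAV, ITGB5, ITGA6, ITGA5, ITGA2, ITGA3, ITGB3 and ITGBL1. These PANC-1 cells thus gave values above the dim range for 1 laminin alpha, 2 laminin beta and 1 laminin gamma chain. They did so for 8 integrin chains.

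**Figure D1:**
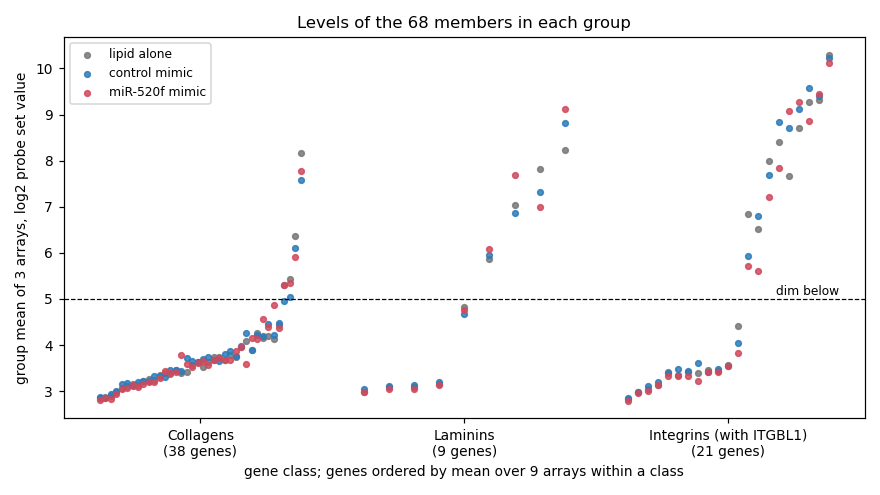
Group means of 3 arrays for each of the 68 genes, on the log2 probe set scale, by class and in the order of their mean over 9 arrays; colours are the treatment groups and the dashed line at 5 marks the dim range. Most collagen chains lie below the line in all groups (34 of 38), and 44 of the 51 genes below it were called in no comparison, against 3 of the 17 above it. Over all genes tested these counts were 6585 of 7937 below the line and 2120 of 6295 above it. The heights of different genes come from different probes and do not rank their transcripts.

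Against both controls 6 members rose with miR-520f and 6 fell. The rises were the fibrillar collagen chains COL5A2 and COL11A1, COL26A1, the laminin chains LAMB1 and LAMC1, and the fibronectin receptor chain ITGA5. The falls were COL6A3 and the integrin chains ITGA2, ITGA3, ITGB3, ITGB4 and ITGB5. These 12 are 17.6% of the members, near the 18.0% of all genes called with the same sign against both controls (9.37% higher and 8.61% lower), so the count does not set the members apart. Among dim genes the share was 5 of 51 members (9.80%) beside 7.26% of all dim genes, and among the others it was 7 of 17 (41.2%) beside 31.5%. The miR-520f arrays lay beyond all 6 control arrays in 14 members (6 above and 8 below), 20.6% beside 25.4% of all genes (13.2% above and 12.1% below). By comparison, 7 members were higher and 9 lower with miR-520f than in NT cells (23.5%, beside 27.6% of all genes, 14.5% higher and 13.1% lower), 8 were higher and 7 lower than in NC cells (22.1%, beside 28.1%, 15.4% higher and 12.6% lower), and NC cells differed from NT cells in 5 higher and 6 lower (16.2%, beside 15.3%, 7.0% higher and 8.28% lower). Among the 17 members above the dim range the shares called were 64.7%, 52.9% and 52.9% in these comparisons, beside 47.5%, 48.5% and 26.8% of all such genes. Among dim members they were 9.80%, 11.8% and 3.92%, beside 11.8%, 11.9% and 6.11%. The median difference of the 68 members was -0.04 against NT and -0.06 against NC, beside -0.03 and -0.03 over all genes. The comparisons share arrays, the miR-520f arrays in one case and a control in the others, and so are not independent of each other. Of the 68 genes, 47 were called in no comparison, beside 8705 of all 14232 genes. These were 44 of 51 dim members, beside 6585 of 7937 dim genes, and 3 of 17 others, beside 2120 of 6295. The 12 genes called against both controls kept both calls without NC replicate 1.

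**Figure D2:**
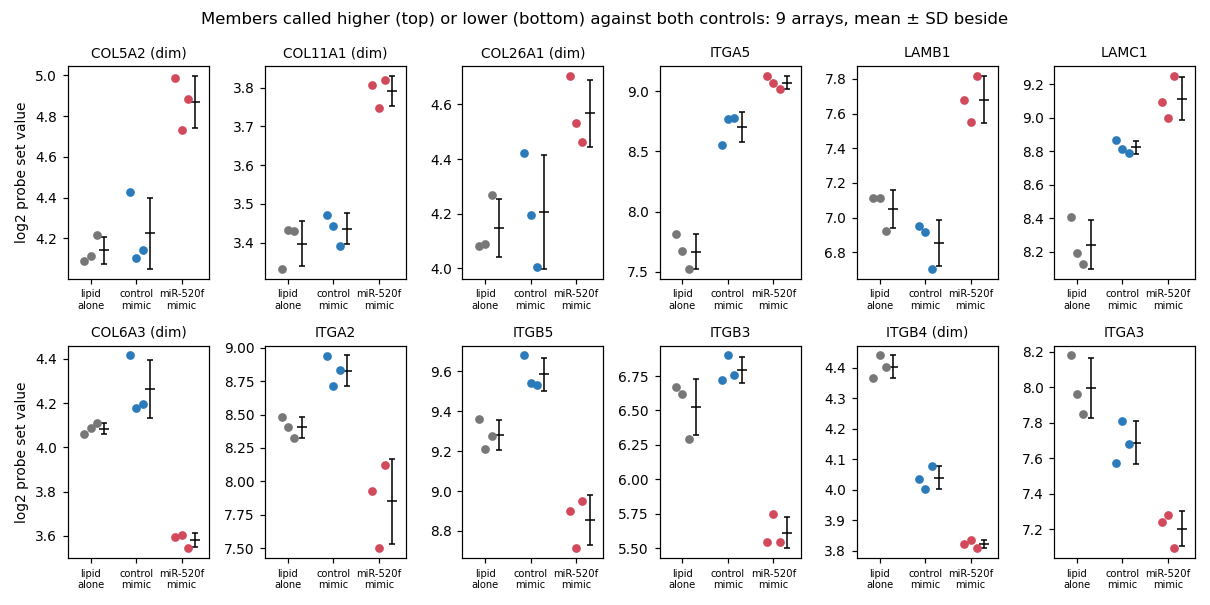
The 12 genes called with the same sign against both controls: each point is 1 array (log2 probe set value), with the group mean and SD (n = 3) beside the points; the top row holds the rises and the bottom row the falls, and each panel has its own axis. The miR-520f arrays lie beyond all 6 control arrays in each panel, as choosing these genes makes likely, and in ITGA5, LAMC1, ITGA3 and ITGB4 the NC arrays lie between the NT and miR-520f arrays.

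Among collagen chains, COL5A2 and COL11A1, which form the thin fibrils that seed larger ones, rose from dim values. COL5A2 (probe set 2591643) read 4.09, 4.11 and 4.22 on the NT arrays, 4.42, 4.10 and 4.14 on the NC arrays and 4.99, 4.73 and 4.89 with miR-520f. All 3 miR-520f arrays were above all controls, and the log2 differences were 0.73 against NT and 0.64 against NC (SE 0.10 each; limma adjusted p = 0.000241 and 0.000532), 1.66-fold and 1.56-fold on the array's scale. COL11A1 (probe set 2425756) read 3.33, 3.43 and 3.43, then 3.47, 3.44 and 3.39, then 3.81, 3.75 and 3.82 in NT, NC and miR-520f cells. The groups of controls overlapped each other and the miR-520f arrays stood above them by 0.39 and 0.36 (SE 0.07; limma adjusted p = 0.00100 and 0.00182). COL5A2 kept both calls under every alternative that still tested it, and COL11A1 did so except where a difference of at least 0.5 was asked for. COL5A1, whose chain makes up most of the type V trimer, was dim as well and not called with miR-520f (0.20 against NT, 95% interval -0.04 to 0.45, and -0.06 against NC, -0.31 to 0.19). Between the controls the COL5A1 difference was 0.26 (limma adjusted p = 0.162), and it was called without NC replicate 1 (0.40, limma adjusted p = 0.00975). COL26A1, a collagen of little known function, read 4.08, 4.09 and 4.27 in NT, 4.42, 4.19 and 4.0 in NC and 4.70, 4.53 and 4.46 in miR-520f cells. NC replicate 1 came close to the lowest miR-520f array. Its differences of 0.42 and 0.36 were called (limma adjusted p = 0.0143 and 0.0308). The call of COL26A1 against NT was lost without NT replicate 1 (0.39), NT replicate 2 (0.39) or miR-520f replicate 1 (0.35), with limma adjusted p of 0.0504 to 0.0684. That against NC was lost without NC replicate 2 (0.35), NC replicate 3 (0.26), miR-520f replicate 1 (0.29) or miR-520f replicate 2 (0.38), with limma adjusted p of 0.0634 to 0.131. Without empirical Bayes moderation both calls of COL26A1 were lost (limma adjusted p = 0.0635 and 0.0982).

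Type VI collagen, which forms beaded filaments around cells, is a trimer of COL6A1, COL6A2 and COL6A3 chains, and its chains did not move alike. COL6A3 (probe set 2605321, dim) read 4.06, 4.09 and 4.11 in NT, 4.42, 4.18 and 4.20 in NC and 3.60, 3.61 and 3.54 in miR-520f cells. It fell by 0.50 against NT and by 0.68 against NC (SE 0.08 each; limma adjusted p = 0.000543 and 6.15e-05), and no alternative that tested it ended either call. COL6A1 read 5.25, 5.31 and 5.35 in NT, 4.75, 5.02 and 5.07 in NC and 5.37, 5.33 and 5.22 with miR-520f. COL6A2 read 5.54, 5.46 and 5.33, then 5.01, 5.0 and 5.14, then 5.28, 5.44 and 5.32. In both genes the NC arrays were the low ones, while the NT and miR-520f arrays overlapped. COL6A1 was 0.36 higher and COL6A2 0.30 higher with miR-520f than in NC cells (limma adjusted p = 0.0114 and 0.0173), with differences from NT of 0.00 (95% interval -0.20 to 0.20) and -0.10 (-0.27 to 0.08). NC cells were lower than NT cells in COL6A1 with a log2 difference of -0.36 and in COL6A2 by -0.39 (limma adjusted p = 0.0213 and 0.00758). The call of COL6A1 against NC was lost without miR-520f replicate 1 (0.33, limma adjusted p = 0.0543), and that of COL6A2 without NC replicate 2 (0.27, 0.0624) or miR-520f replicate 2 (0.25, 0.0754). In NC against NT, COL6A1 was not called without NT replicate 2 (-0.35, limma adjusted p = 0.0731) or NT replicate 3 (-0.33, 0.0698). The difference between the chains' changes was not tested.

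COL1A1, the main chain of type I collagen, was not called with miR-520f against either control. Its arrays read 8.23, 8.18 and 8.10 in NT, 7.06, 7.82 and 7.86 in NC and 7.85, 7.76 and 7.72 in miR-520f cells, so NC replicate 1 stood far below the rest. The differences were -0.39 against NT (95% interval -0.77 to -0.01; limma adjusted p = 0.132) and 0.20 against NC (-0.18 to 0.58). NC cells were lower than NT cells by a difference of -0.59 (limma adjusted p = 0.0416). Without NC replicate 1 that last difference was -0.33 (limma adjusted p = 0.0147), COL1A1 was called lower with miR-520f than in NT cells (-0.39, 0.00111), and the difference from NC was -0.06. Leaving out any 1 of the NT or miR-520f arrays ended the NC against NT call (limma adjusted p of 0.0580 to 0.113; differences of -0.62 to -0.56). Its partner chain COL1A2 and the fibroblast collagen COL3A1 were dim, with means of 3.65 and 3.63, and were called in no comparison. COL9A3, a cartilage collagen chain that coats fibrils, read 6.37, 6.37 and 6.33 in NT, 5.87, 6.19 and 6.29 in NC and 5.85, 6.0 and 5.85 with miR-520f. It fell against NT (-0.45, limma adjusted p = 0.00614) and was not called against NC (-0.21, 95% interval -0.44 to 0.02). Without NC replicate 1, the low array of its group, COL9A3 was called against NC as well (-0.33, limma adjusted p = 0.00768). COL12A1, which decorates fibrils, was dim and called only in NC against NT (0.31, limma adjusted p = 0.0145). That call of COL12A1 was lost without NT replicate 2 (0.32, limma adjusted p = 0.0519), while its difference of 0.19 from NT with miR-520f was called without NC replicate 1 (limma adjusted p = 0.0412), after a further quantile normalization (0.24) and with arrays centred on the median (0.25).

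The other 29 collagen chains, all dim, were called in no comparison. Their differences ran from -0.12 to 0.27 against NT and from -0.20 to 0.27 against NC, with medians of -0.03 and -0.06. They included COL23A1 and COL8A2, at -0.06 and -0.12 for COL23A1 and -0.12 and -0.07 for COL8A2 against NT and NC. By kind, 0 of 6 basement membrane chains, 0 of 3 transmembrane chains and 0 of 3 short-chain collagens were called in any comparison. All of these were dim, and 6585 of all 7937 dim genes were likewise called in none. Of 10 fibril-forming chains 2 rose against both controls (20.0%, beside 9.37% of all genes). Chains of neighbouring genes were set side by side, since 7 pairs of members are next to each other among protein-coding genes. In 4 pairs (COL4A1 and COL4A2, COL4A3 and COL4A4, COL4A5 and COL4A6, COL9A1 and COL19A1) neither gene was called in any comparison. COL6A1 and COL6A2 had the same calls in all 3. COL5A2 rose beside COL3A1, which was not called (0.14 and -0.04), and LAMB1 rose beside LAMB4 (-0.04 and -0.07).

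Among laminin chains, LAMC1, the gamma chain shared by most laminins, and LAMB1, the beta chain of laminin-111, rose against both controls. LAMC1 (probe set 2371065) read 8.40, 8.19 and 8.13 in NT, 8.87, 8.81 and 8.79 in NC and 9.10, 9.0 and 9.25 in miR-520f cells. The 3 groups did not overlap, with the NC arrays between the others. LAMC1 was 0.88 higher with miR-520f than in NT cells (SE 0.09, limma adjusted p = 3.67e-05, 1.83-fold) and 0.29 higher than in NC cells (limma adjusted p = 0.0341), and NC exceeded NT by 0.58 (limma adjusted p = 0.00161). The smaller difference from NC was not called without NT replicate 2 (0.29), NC replicate 2 (0.29), NC replicate 3 (0.28), miR-520f replicate 1 (0.30) or miR-520f replicate 3 (0.22), with limma adjusted p of 0.0504 to 0.134. Nor was it called without empirical Bayes moderation (limma adjusted p = 0.0778) or with adjustment over all probe sets (0.0565). LAMB1 (probe set 3067302) read 7.11, 7.11 and 6.92 in NT, 6.95, 6.91 and 6.70 in NC and 7.68, 7.55 and 7.82 in miR-520f cells. Here the controls overlapped and the miR-520f arrays stood apart, by 0.63 from NT and 0.83 from NC (SE 0.10; limma adjusted p = 0.000540 and 8.02e-05), under every alternative run.

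LAMB2, the beta chain that takes the place of LAMB1 in several laminins, went the other way. It read 8.0, 7.70 and 7.73 in NT, 7.51, 7.41 and 7.03 in NC and 7.08, 7.05 and 6.85 with miR-520f, with NC replicate 3 among the miR-520f values. LAMB2 fell against NT (-0.82, SE 0.13, limma adjusted p = 0.000692) and was not called against NC (-0.32, 95% interval -0.61 to -0.04, limma adjusted p = 0.0933), while NC was lower than NT (-0.49, limma adjusted p = 0.0258). Without NC replicate 3 LAMB2 was called against NC (-0.47, limma adjusted p = 0.0101), and NC against NT was not called without NC replicate 3 (-0.35, 0.0628) or NT replicate 1 (-0.40, 0.0933). LAMA5, the alpha chain of laminins of epithelial basement membranes, read 5.79 to 5.97 in NT, 5.91 to 6.05 in NC and 5.96 to 6.19 in miR-520f cells. The groups overlapped, and LAMA5 was not called against NT (0.21, 95% interval 0.03 to 0.39, limma adjusted p = 0.0938) or NC (0.12, -0.07 to 0.30), though with arrays centred on the median it was called against NT (0.28). The 5 dim laminin chains, LAMC3, LAMA1, LAMA2, LAMA4 and LAMB4, were called in no comparison, with differences of -0.08 to -0.01 against NT and -0.08 to 0.08 against NC. LAMC3 read 4.64 to 4.90 over the 9 arrays and LAMA1 read 3.04 to 3.26.

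Of 20 integrin chains, 1 rose and 5 fell against both controls, beside 9.37% higher and 8.61% lower of all genes. Among the 9 integrin genes above the dim range, ITGBL1 included, 1 rose and 4 fell. Of all 6295 genes above that range, 1073 rose and 910 fell. Whether integrin chains fell more often than other genes was not tested. ITGA5, the alpha chain of the fibronectin receptor, had the largest difference from NT of all 68 genes. It (probe set 3456732) read 7.81, 7.67 and 7.52 in NT, 8.56, 8.77 and 8.78 in NC and 9.13, 9.07 and 9.02 in miR-520f cells. The 3 groups were apart, and most of the distance lay between the controls, since NC exceeded NT by 1.03 (limma adjusted p = 5.91e-05) and miR-520f exceeded NC by 0.37 (SE 0.09, limma adjusted p = 0.0108). Against NT the difference was 1.40 (limma adjusted p = 1.42e-06), or 2.64-fold, and its calls against NT and between the controls held under every alternative run. The ITGA5 call against NC was lost at an adjusted p under 0.01 and with a minimum difference of 0.5. ITGAV, an alpha chain of vitronectin and fibronectin receptors, was not called (9.26 to 9.64 on all arrays; differences of 0.13 from NT, 95% interval -0.07 to 0.34, and 0.03 from NC, -0.17 to 0.23), and ITGA8 was dim and not called.

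Chains that bind collagen and laminin are next. ITGA2, the alpha chain of the main epithelial collagen receptor, read 8.48, 8.40 and 8.32 in NT, 8.94, 8.71 and 8.84 in NC and 7.93, 7.50 and 8.12 with miR-520f. The miR-520f arrays were below all controls and spread widely (7.85 ± 0.32, SD, n = 3). ITGA2 (probe set 2809245) fell by 0.55 against NT and by 0.98 against NC (SE 0.14 each; limma adjusted p = 0.0102 and 0.000266). Without empirical Bayes moderation the call against NT was lost (limma adjusted p = 0.0643), and NC against NT (0.43, limma adjusted p = 0.0607) was called under 9 alternatives, among them leaving out miR-520f replicate 2 (limma adjusted p = 0.0114) or 3 (0.0340). ITGA10, a collagen-binding chain of cartilage, was dim and called only against NC (-0.40, limma adjusted p = 0.00614; -0.18 against NT), while ITGA11 was not called. ITGA3, an alpha chain of laminin receptors, read 8.18, 7.96 and 7.85 in NT, 7.57, 7.81 and 7.68 in NC and 7.24, 7.28 and 7.09 with miR-520f. It (probe set 3726154) fell by 0.79 against NT and by 0.48 against NC (SE 0.10; limma adjusted p = 0.000136 and 0.00363), the latter call ending only with a minimum difference of 0.5, and its NC against NT difference of -0.31 was called without NT replicate 3 (-0.38, limma adjusted p = 0.0410).

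ITGA6, the other laminin-binding alpha chain above the dim range, moved the opposite way to ITGA3 against NT. It read 8.71, 8.70 and 8.70 in NT, 9.20, 9.08 and 9.07 in NC and 9.25, 9.07 and 9.52 with miR-520f. The NC and miR-520f arrays overlapped and both lay above NT. ITGA6 rose against NT (0.57, SE 0.10, limma adjusted p = 0.00145), NC exceeded NT by 0.41 (limma adjusted p = 0.0194), and the difference between miR-520f and NC was 0.16 (95% interval -0.06 to 0.39, not called). The NC against NT call of ITGA6 was lost without NT replicate 2 (0.41), NT replicate 3 (0.41) or NC replicate 1 (0.37), with limma adjusted p of 0.0518 to 0.0644. ITGB4, which pairs only with ITGA6 and anchors epithelial cells at hemidesmosomes, was dim and fell in steps. It read 4.37, 4.44 and 4.40 in NT, 4.04, 4.0 and 4.08 in NC and 3.82, 3.83 and 3.81 in miR-520f cells, with no overlap between groups. The differences of ITGB4 (probe set 3735151) were -0.58 against NT, -0.22 against NC and -0.36 for NC against NT (SE 0.06; limma adjusted p = 4.67e-05, 0.0231 and 0.00286). The call against NC was lost without NC replicate 3 (-0.20) or any miR-520f array (-0.22 to -0.21), with limma adjusted p of 0.0568 to 0.0829. It was also lost with an intensity trend and robust prior (limma adjusted p = 0.0549) and after a further quantile normalization (0.0567).

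Of the beta chains that pair with ITGAV, ITGB3 and ITGB5 fell against both controls. ITGB3 (probe set 3724545) read 6.67, 6.62 and 6.30 in NT, 6.72, 6.90 and 6.76 in NC and 5.55, 5.75 and 5.55 with miR-520f. Its arrays with miR-520f were far below the controls, with log2 differences of -0.91 from NT and -1.18 from NC (SE 0.11; limma adjusted p = 7.99e-05 and 1.24e-05), which is 1.88-fold and 2.27-fold. ITGB5 (probe set 2692816) read 9.36, 9.21 and 9.27 in NT, 9.68, 9.54 and 9.53 in NC and 8.90, 8.71 and 8.95 with miR-520f. It fell by 0.43 against NT and by 0.73 against NC (SE 0.08; limma adjusted p = 0.00275 and 6.85e-05), and the NC arrays were the high ones (0.30 above NT, limma adjusted p = 0.0325). That call between the controls was lost for ITGB5 without NT replicate 2 (0.27), NT replicate 3 (0.30), NC replicate 1 (0.26), NC replicate 2 (0.32) or miR-520f replicate 1 (0.30), with limma adjusted p of 0.0542 to 0.136. Both falls of ITGB3 with miR-520f kept their calls under every alternative run, and those of ITGB5 did so except against NT with a minimum difference of 0.5. ITGB1, the partner of most alpha chains, read 10.21 to 10.36 in NT, 10.10 to 10.41 in NC and 10.02 to 10.19 in miR-520f cells. The miR-520f arrays of ITGB1 lay below the NT arrays and overlapped the NC arrays, and it was not called (-0.19 against NT, 95% interval -0.40 to 0.01, and -0.12 against NC, -0.32 to 0.09). The other beta chains, ITGB2, ITGB6, ITGB7 and ITGB8, were dim and called in no comparison. The same held for the alpha chains ITGA7, ITGA8, ITGA9, ITGA11, ITGAL and ITGAX. Differences of these beta and alpha chains ran from -0.08 to -0.01 against NT and from -0.16 to 0.00 against NC.

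ITGBL1, which is no integrin chain, read 6.91, 6.84 and 6.75 in NT, 5.95, 5.91 and 5.96 in NC and 5.68, 5.90 and 5.60 with miR-520f. The NT arrays stood well above the rest. ITGBL1 was lower than NT both with miR-520f (-1.11, SE 0.09, limma adjusted p = 4.99e-06) and with the negative control mimic (-0.90, limma adjusted p = 9.71e-05). Against NC the difference with miR-520f was -0.21 (95% interval -0.41 to -0.02, limma adjusted p = 0.0952), and it was called without miR-520f replicate 2 (-0.30, 0.0226) and after a further quantile normalization (-0.24, 0.0470).

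**Figure D3:**
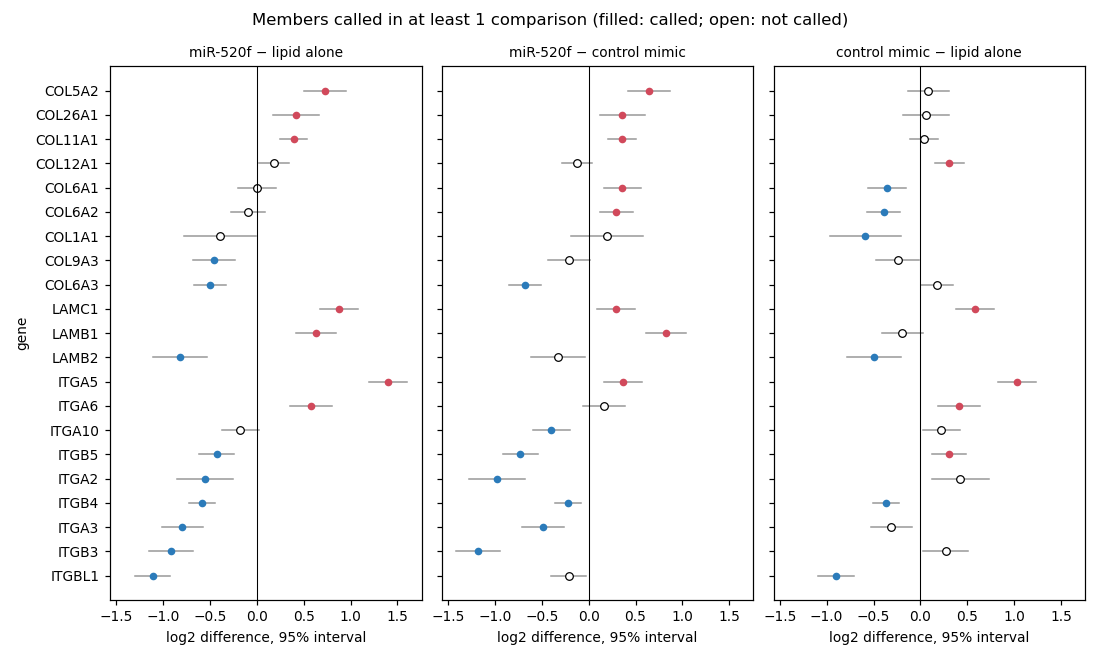
Log2 differences with 95% intervals (not adjusted for the number of genes) for the 21 members called in at least 1 of the 3 comparisons, by class; filled points passed the adjusted threshold (red higher, blue lower) and open points did not. ITGA5, LAMC1, ITGA6, ITGB4, LAMB2 and ITGBL1 differ between the control groups (right panel) in the direction of their difference from lipid alone (left panel), while COL5A2, COL11A1 and LAMB1 were not called there.

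RefSeq promoter windows of 300 bases around the annotated start (GRCh38.p14) were held for 46 of the 68 genes. Those of both laminin chains that rose, LAMB1 (chr7:108003112-108003411, minus strand) and LAMC1 (chr1:183023170-183023469, plus strand), and of 2 integrin alpha chains, the one that rose against both controls and the one with the larger fall against NC, ITGA5 (chr12:54419217-54419516, minus strand) and ITGA2 (chr5:52989102-52989401, plus strand), are shown so that genes of like and unlike response can be set side by side. Capitals mark each GC box, GGGCGG on either strand.
LAMB1 promoter: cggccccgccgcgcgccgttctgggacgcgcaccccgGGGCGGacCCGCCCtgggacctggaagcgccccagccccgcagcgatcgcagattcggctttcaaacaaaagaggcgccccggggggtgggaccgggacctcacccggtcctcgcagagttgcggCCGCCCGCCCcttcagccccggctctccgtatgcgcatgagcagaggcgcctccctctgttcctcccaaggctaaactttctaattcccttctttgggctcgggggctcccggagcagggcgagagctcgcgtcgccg
LAMC1 promoter: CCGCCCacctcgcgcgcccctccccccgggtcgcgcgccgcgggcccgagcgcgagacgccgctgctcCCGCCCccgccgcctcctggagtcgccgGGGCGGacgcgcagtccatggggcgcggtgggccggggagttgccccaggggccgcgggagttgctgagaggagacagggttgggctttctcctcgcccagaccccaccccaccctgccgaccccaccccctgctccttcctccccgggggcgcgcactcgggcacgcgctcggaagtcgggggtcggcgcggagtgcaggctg
ITGA5 promoter: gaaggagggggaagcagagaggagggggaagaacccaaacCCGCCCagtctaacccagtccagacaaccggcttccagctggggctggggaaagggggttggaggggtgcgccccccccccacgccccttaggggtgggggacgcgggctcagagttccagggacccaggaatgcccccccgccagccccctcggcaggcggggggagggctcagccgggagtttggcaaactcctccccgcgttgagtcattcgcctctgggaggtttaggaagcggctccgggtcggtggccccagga
ITGA2 promoter: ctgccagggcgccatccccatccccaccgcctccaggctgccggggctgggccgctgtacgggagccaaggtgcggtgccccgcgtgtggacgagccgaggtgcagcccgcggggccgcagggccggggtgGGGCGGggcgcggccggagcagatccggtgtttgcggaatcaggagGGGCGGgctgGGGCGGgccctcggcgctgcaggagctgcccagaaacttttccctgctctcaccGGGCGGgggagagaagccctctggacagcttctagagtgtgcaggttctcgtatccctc
The windows were rich in G and C, at 71% for LAMB1, 79% for LAMC1, 69.3% for ITGA5 and 72.7% for ITGA2. They held 4, 3, 1 and 4 GC boxes in that order, so GC boxes were found in the gene that fell as in those that rose. None of these 4 windows had a TATA box (TATAAA) or a CCAAT box (CCAAT). The ITGA5 window held 1 AP-1 motif (TGANTCA), and the other 3 had 0. A GC box was found in 26 of the 46 windows (56.5%), beside 45% of 35116 windows of the same length, a TATA box in 3 (6.52%, beside 11.5%), a CCAAT box in 11 (23.9%, beside 34.6%) and an AP-1 motif in 1 (2.17%, beside 7.71%). The members gave 1 window per gene, while the 35116 are all windows of that length, not limited to genes on the array. The shares are therefore not strictly alike. Motifs were searched on both strands, and overlapping matches were counted. A match describes letters and is not a bound site.

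Genes that make, process or read these proteins were counted in 5 lists. Of 24 measured genes of collagen folding and crosslinking, 3 rose and 3 fell against both controls. By comparison 5 rose and 5 fell against NT, and 3 rose and 5 fell against NC. SERPINH1, the chaperone of collagen helices, rose by 0.80 and 0.76 against NT and NC, from 8.58 to 9.0 on the control arrays to 9.60 to 9.65 with miR-520f. COLGALT1, which adds galactose to collagen, fell (-0.76 and -0.84), as did SEC23A (-0.54 and -0.62), a coat protein of the vesicles that carry procollagen, and KLHL12 (-0.46 and -0.68), which enlarges those vesicles. Of 12 measured basement membrane partners, 10 of them dim, SPARC alone rose against both controls (0.76 and 0.55) and 0 fell. Single comparisons called 2 higher and 0 lower against NT, and 1 higher and 0 lower against NC, where leaving out NT replicate 3 or NC replicate 1 gave 2 calls.

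Of 26 measured integrin adaptors, 2 rose and 2 fell against both controls. Against NT 3 rose and 4 fell (4 calls without miR-520f replicate 1), and against NC 9 rose and 3 fell. FERMT2, a kindlin that binds beta chain tails to activate integrins, rose by 0.99 and 0.80, and the adaptor CRKL rose by 0.52 and 0.78. Between the controls FERMT2 differed by 0.19 and was not called, but it was called without NC replicate 1 (0.34, limma adjusted p = 0.0158). CRKL was not called against NT without NT replicate 3 (0.44, limma adjusted p = 0.0597) or miR-520f replicate 1 (0.50, 0.0504). PXN (paxillin), a scaffold of focal adhesions, fell (-0.90 and -0.85), and so did the pseudokinase ILK (-0.36 and -0.53), which binds beta chain tails. Among 16 measured other matrix receptors, 1 rose and 5 fell against both controls, with 1 higher and 5 lower against NT and 3 higher and 7 lower against NC. The hyaluronan receptor CD44 fell from 8.48 to 9.05 on the control arrays to 7.43 to 7.52 with miR-520f. ADGRG1, a dim adhesion receptor of type III collagen, fell as well (-0.89 and -0.72), and the proteoglycan SDC1 rose (0.44 and 0.53). The SDC1 call against NT was lost without NT replicate 2 (0.38), NT replicate 3 (0.39), miR-520f replicate 1 (0.37) or miR-520f replicate 3 (0.45), with limma adjusted p of 0.0648 to 0.111.

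Of 5 measured genes of the hemidesmosome, the junction that ties keratins to laminin, 4 fell and 0 rose against both controls. Besides ITGB4 these were the linkers PLEC (-0.49 and -0.41) and DST (-0.38 and -0.40) and the tetraspanin CD151 (-0.62 and -0.34), 3 genes that are also on the receptor list. The remaining gene was ITGA6, which rose against NT. The DST call against NT was lost without NT replicate 2 or 3 or miR-520f replicate 1 or 2 (-0.39 to -0.26; limma adjusted p of 0.0694 to 0.106). Against NC DST lost it without NC replicate 1 or 3 or miR-520f replicate 1 or 2 (-0.41 to -0.28; limma adjusted p of 0.0567 to 0.0815), and the count of 4 against NC was 2 without NC replicate 3, miR-520f replicate 1 or miR-520f replicate 2. The background for the counts against both controls was 18.0% of all genes, 9.37% higher and 8.61% lower, and 31.5% of genes above the dim range. For the single comparisons it was 27.6% of all genes against NT and 28.1% against NC, and 47.5% and 48.5% of genes above the dim range. Of the measured list genes, 8 of 24 for collagen folding and crosslinking, 11 of 26 adaptors, 5 of 16 receptors and 1 of 5 in the hemidesmosome were dim.

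**Figure D4:**
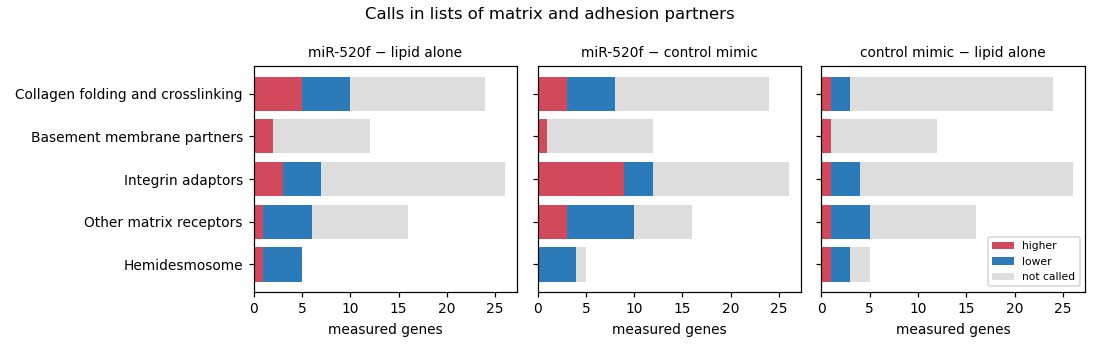
Number of measured genes called higher (red), lower (blue) or not called (grey) in each of 5 lists of partner genes, in the 3 comparisons. Hemidesmosome genes were called in 5 of 5 against lipid alone, 4 lower and 1 higher. The integrin adaptors had 9 higher and 3 lower against the control mimic, but 3 higher and 4 lower against lipid alone. Of all genes tested, 27.6% were called against lipid alone and 28.1% against the control mimic. Among genes above the dim range these shares were 47.5% and 48.5%.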

How the data were processed

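RNA of 9 PANC-1 cultures was measured on Affymetrix arrays from biotin-labelled cDNA, per the labels' protocols. The table that the authors deposited holds log2 values of 22011 probe sets, and the submitters' processing notes name Partek 6.6, RMA and build hg18 without settings. Any filter by the authors is not given in the sources used here. RMA compresses differences of dim probe sets, and no background values were used. A single symbol was held by 14432 probe sets, several by 2408 and none by 5171. Entrez identifiers matched 14404 of the former to the GRCh38.p14 gene table, and 0 symbols changed. Each gene took its probe set of highest mean, 197 genes having several and 0 of the members. A further 11 probe sets named a member together with another gene and were not used.

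All genes were fitted with limma 3.58.1 (R 4.3.3), 1 mean per group over 9 arrays, with empirical Bayes moderation on 6 residual degrees of freedom, and p-values were Benjamini-Hochberg adjusted over 14232 genes. The study compared pairs of groups by analysis of variance in Partek, per the series' design text, so an unmoderated fit was an alternative. The fit was tested on simulated data. Members, lists, classes and alternatives were chosen with earlier results of these data known. Named members were those called against both controls, up to 6 per class called in 1 miR-520f comparison or between controls alone, and the 3 of highest value left in each class. From each partner list up to 4 genes called against both controls were named, by the smaller difference. The dim limit of 5 and the 95% intervals are settings of this work. The number of arrays limits the precision.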

Additional observations from a re-analysis of the deposited data

How the results depend on the processing

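Over up to 20 alternatives per gene at an adjusted p under 0.05 and with no minimum difference, 54 of the 73 called values of the 45 named genes (30 members and 15 partners) kept their call wherever they were tested, 19 lost it at least once, 11 of 62 uncalled values gained one, and 0 called values changed sign. The alternatives for partner genes were added after seeing the data. Of the uncalled values 19 changed sign under an alternative without being called. The members called numbered 16 against NT, 15 against NC and 11 in NC against NT, with 6 higher and 6 lower than both controls. Leaving out 1 array gave 15 to 18, 11 to 16, 6 to 11, 4 to 6 and 5 to 7 in that order. Only the lowest count between the controls, 6 without NT replicate 2, was past 1.5 times its main value, and without NC replicate 1 the counts were 18, 16, 10, 6 and 7. NC against NT gave 6 without empirical Bayes moderation, 5 at an adjusted p under 0.01 and 4 with a difference of at least 0.5. Without moderation COL26A1, SDC1 and DST lost both miR-520f calls, LAMC1 its call against NC, and ITGA2 and CRKL theirs against NT. Against NC the count was 9 with genes of mean at least 5, 7 with genes of mean at least 6, 9 at an adjusted p under 0.01 and 6 with a difference of at least 0.5. Members higher than both controls were 3 with genes of mean at least 5, 3 with at least 6, 3 at the stricter p and 2 with the minimum difference. With that minimum difference 3 were lower than both. The mean filters test fewer genes, and the stricter p and the minimum difference ask more of each. The dim count of 51 was 44 at a limit of 4 and 54 at 6. A further quantile normalization and median centring moved the median of all genes by less than 0.1. With centring the median against NT went from -0.03 to 0.04 and against NC from -0.03 to 0.01. The share higher among called genes then went from 52.5% to 61.7% against NT, and from 55% to 61.2% against NC. With the quantile normalization it was 52.3% and 54.6%. The balance of higher and lower calls over all genes thus depends on the scaling.

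Replicate numbers are shared by the groups. Deviations of same-numbered arrays correlated at -0.0262 to 0.205 over 9 pairs, inside the range of differently numbered arrays (-0.437 to 0.330). Most same-numbered pairs were positive, while most others were negative. The main fit did not take the numbers as pairing the arrays, and these ranges cannot decide whether they do. With the replicate block 16, 16 and 12 members were called in the 3 comparisons, and 6 were higher and 7 lower than both controls. The gain among the lower was LAMB2 (-0.32 against NC, limma adjusted p = 0.0242), and between the controls it was ITGA2 (limma adjusted p = 0.0364). The block also brought the basement membrane partners called against NC from 1 to 2.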
